A study of Mus musculus with 39 samples.

Results

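In 9 of 39 lymphomas of Eµ-myc mice the level of Bpifa2, a protein that mouse salivary glands secrete into saliva, was above 12 on the log2 scale of the arrays. These 9 tumours were compared with the 26 tumours in which Bpifa2 was under 5, and the other 4 tumours lay between the thresholds. The split rests on a measured value: Bpifa2 itself chose the tumours, and amylase and other gland genes were known to follow it in these arrays when the split was proposed. The levels of gland genes are therefore given as a description, and p-values of single genes are printed only outside the gland lists. Gland genes were fitted together with all other genes. Counts of gland genes called are part of the description and are no test of the split.

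Every tumour carries the Eµ-myc transgene, in which the immunoglobulin heavy chain enhancer drives Myc in cells of the B lineage. Tumour tissue was taken from mice with signs of lymphoma or illness, frozen and ground, and total RNA was hybridised to 1 array per tumour. The labels call all 39 samples lymphoma tumours of 1 genotype and give no sex, age, site of the tumour, normal tissue, treatment or batch. Whether the 39 tumours are from 39 different mice is not stated, and the p-values therefore describe the spread among these arrays alone.

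Salivary glands are built of secretory end pieces and ducts. Serous end-piece cells make a watery fluid rich in enzymes such as amylase and in proline-rich proteins, mucous and demilune cells make mucins and small protective proteins, and the ducts change the ion content of the fluid. In the mouse the parotid, submandibular and sublingual glands lie in the neck close to the cervical lymph nodes, and lacrimal glands secrete several of the same protein families.

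In the tumours with Bpifa2 above 12 the level was 14.84 in tumour 25, 14.71 in tumour 39, 14.66 in tumour 8, 14.60 in tumour 37, 14.52 in tumour 38, 14.42 in tumour 3, 14.31 in tumour 7, 14.01 in tumour 13 and 12.48 in tumour 15. In the tumours with Bpifa2 under 5 it ranged between 3.32 and 4.998 with a median of 3.65. The threshold values have wide gaps around them at the upper end and a narrow one at the lower end. Just inside the upper threshold lay tumour 15 at 12.48, and the nearest tumour outside it was tumour 19 at 8.71. Just inside the lower threshold lay tumour 2 at 4.998, and the nearest tumour outside it was tumour 6 at 5.495. Tumours 26 and 16, at 7.34 and 6.51, were the others in between. Of these 4 tumours, 19, 26 and 6 had low levels of the B cell coactivator Pou2af1, at 4.01, 6.81 and 3.10.

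Levels of 3 further salivary markers are described here. They are no independent check of the label, since gland genes were known to follow Bpifa2 in these arrays. Amy1, the amylase of saliva, had a lowest level of 9.71, a median of 13.11 and a highest level of 14.18 in the tumours with Bpifa2 above 12, against 2.88, 3.67 and 6.42 in the tumours with Bpifa2 under 5. Pip, a small protein of saliva and tears, had 10.21, 13.21 and 14.44 with Bpifa2 above 12, against 3.59, 3.98 and 6.29 with Bpifa2 under 5. Car6, the carbonic anhydrase that is secreted into saliva, had 8.51, 13.32 and 14.27 with Bpifa2 above 12, against 3.74, 4.16 and 6.79 with Bpifa2 under 5. For each of the 3 markers all 9 tumours lay above all 26 tumours of the other side. In the tissue as a whole, more gland cells and more RNA per gland cell cannot be told apart.

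**Figure D1:**
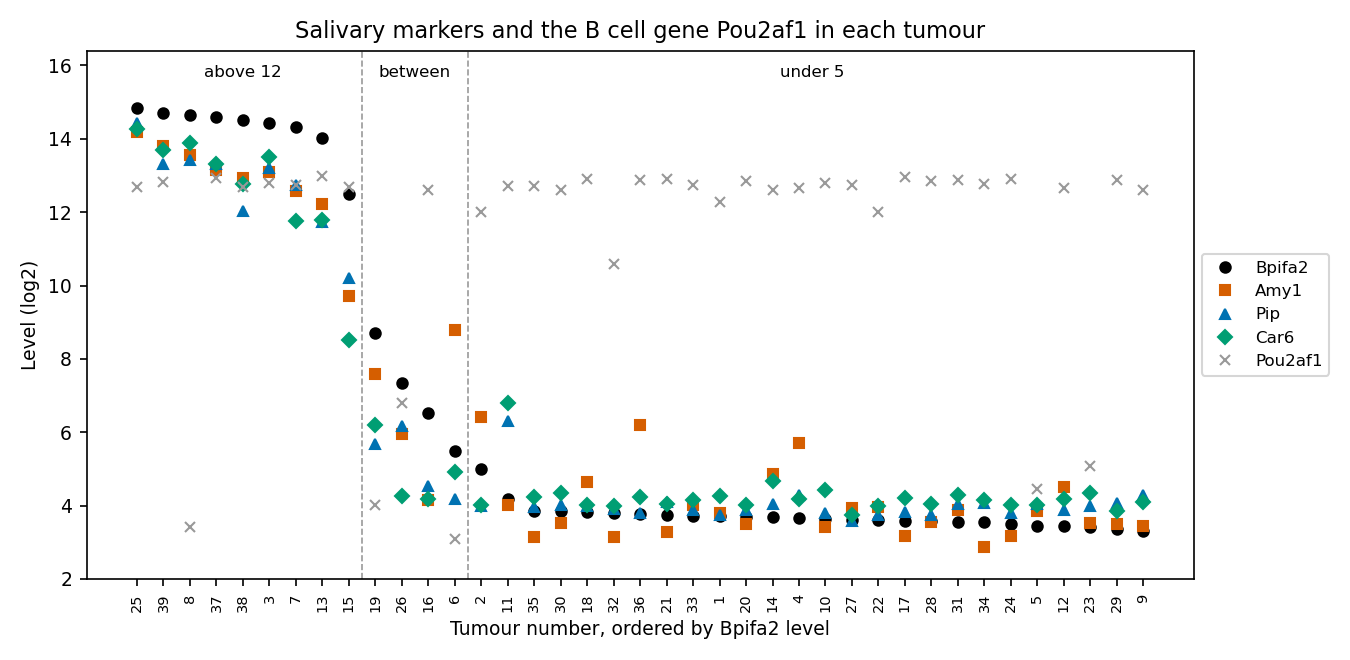
Levels (log2, vertical axis) of Bpifa2, Amy1, Pip, Car6 and the B cell gene Pou2af1 in each of 39 tumours, ordered along the horizontal axis by Bpifa2, with dashed lines between the tumours above 12, those between and those under 5. The salivary markers fall off together at tumour 15, the lowest of the 9, while Pou2af1 is between 12.68 and 12.98 in all of these 9 tumours but tumour 8, where it is 3.41.

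Among 18192 genes tested with limma, 124 were called higher in the tumours with Bpifa2 above 12 (0.682% of those tested) and 2 were called lower (0.011%), at an adjusted p under 0.05. At an unadjusted p under 0.05 the counts were 1420 higher and 282 lower. Of the 124 genes, 32 belong to the 6 lists of gland genes drawn up for this comparison and 92 do not. The difference was at least 1 on the log2 scale for 49 of the 124 genes, at least 2 for 24 and at least 5 for 11. In 112 of the 124 genes the median level in the tumours with Bpifa2 under 5 was below 6, and the median difference over all genes tested was 0.0271. Only 14 genes tested (0.077%) had all 9 tumours above all 26, and 0 had all 9 below all 26. These 14 were Amy1, Pip, Car6, Smr3a, Cst10, Dnase1, Chia1, Dcpp1, Dcpp3, Wfdc12, Scgb2b27, Mup5, Lrrc26 and the Riken clone 2310057J18Rik, the last 2 being outside the gland lists and the clone named here after its values were seen.

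Of 15 serous gland genes tested, 10 were called higher and 0 lower, with a median difference of 3.60 on the log2 scale. That share is given beside the 0.682% of all genes and is no test, since the list follows the gene that made the split. Smr3a, a small protein made in the submandibular gland, had a lowest level of 6.61, a median of 11.66 and a highest level of 13.55 with Bpifa2 above 12, against 2.96, 3.25 and 3.62 with Bpifa2 under 5. Cst10, a member of the cystatin family of protease inhibitors, had 7.22, 11.45 and 13.27 with Bpifa2 above 12, against 2.74, 3.23 and 3.63 with Bpifa2 under 5. In all 26 tumours with Bpifa2 under 5 these genes stayed at or under 3.63, a lower ceiling than those of Amy1, Pip and Car6. Dnase1, a secreted nuclease, had 7.92, 12.45 and 14.24 with Bpifa2 above 12, against 3.58, 4.24 and 5.80 with Bpifa2 under 5. Chia1, a secreted acidic chitinase, had 8.02, 12.57 and 13.58 with Bpifa2 above 12, against 4.12, 4.45 and 6.81 with Bpifa2 under 5.

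Less uniform levels were seen for other serous products. Lpo, the lactoperoxidase of saliva and milk, was between 4.71 and 11.30 with Bpifa2 above 12 (median 7.82), against 4.24 to 4.86 with Bpifa2 under 5 (median 4.51). Aqp5, the water channel in the apical membrane of acinar cells, was between 5.49 and 9.23 with Bpifa2 above 12 (median 7.13), against 4.74 to 5.62 with Bpifa2 under 5 (median 5.22). Both genes overlapped between the sides through their lowest tumour, tumour 15 for Lpo and tumour 13 for Aqp5. The 5 serous genes not called were Prp2, Klk1, Bhlha15, Slc12a2 and Lman1l. Bhlha15, a transcription factor of acinar cells that plasma cells also use, averaged 8.78 with Bpifa2 above 12 and 7.97 with Bpifa2 under 5, and Slc12a2, which loads acinar cells with chloride, averaged 9.90 and 9.24 in the same order.

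Klk1, the tissue kallikrein of glands, depends on the probe set chosen to stand for it. The probe set with the highest mean level gave 7.85 with Bpifa2 above 12 and 7.70 with Bpifa2 under 5, a difference of 0.15. Of the other 3 probe sets, 2 averaged 9.85 and 10.02 with Bpifa2 above 12, against 3.94 and 4.18 with Bpifa2 under 5, which are differences of 5.92 and 5.85. The remaining probe set differed by 0.53. Kallikrein genes of the mouse are a family of close copies, and probe sets may be shared between them, so the level of a single member is uncertain.

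Promoters are shown for Bpifa2, which made the split, and for the 4 of the 15 looked-up genes whose 60 bases before the start hold the letters TATAAA on the gene's own strand. The sequences are those of RefSeq on GRCm38.p6, run 5′ to 3′ on the strand of the gene, and end with the base before the start. Capitals mark TATAAA, whose first base lies 28 bases before the start of Pip, 43 before Chia1, 30 before A2ml1 and 41 before Prpmp5. The windows are chr2:154008216-154008275 on the plus strand for Bpifa2, chr6:41847489-41847548 on the plus strand for Pip, chr3:106113322-106113381 on the plus strand for Chia1, chr6:128581607-128581666 on the minus strand for A2ml1 and chr6:132314744-132314803 on the minus strand for Prpmp5.
Bpifa2: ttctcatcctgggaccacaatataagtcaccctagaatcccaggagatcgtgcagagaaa
Pip: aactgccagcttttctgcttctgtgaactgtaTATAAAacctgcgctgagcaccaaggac
Chia1: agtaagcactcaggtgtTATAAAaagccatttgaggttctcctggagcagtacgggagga
A2ml1: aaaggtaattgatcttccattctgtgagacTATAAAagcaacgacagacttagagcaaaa
Prpmp5: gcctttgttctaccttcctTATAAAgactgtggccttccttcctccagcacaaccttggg

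TATAAA stood in these 60 bases for 5 of 22 genes with a promoter entry that were called higher by at least 2 on the log2 scale (22.7%). It stood there for 9 of 94 genes called higher (9.57%), and for 496 of 14367 genes tested (3.45%). Over the longer window of 250 bases before to 50 after the start, read on both strands, it was in 41.7%, 14.7% and 9.76% of the promoters of the same sets. CATATG, which reads the same on both strands, was in 0 of 24, in 1 of 109 (0.917%) and in 2.32% of these promoters. TGACGT, read on both strands, was in 12.5%, 9.17% and 9.58%. The matches describe letters in these windows, and binding was not measured.

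Of 16 genes of mucous and demilune cells tested, 6 were called higher and 0 lower, beside 0.682% and 0.011% of all genes tested. The median difference of the 16 genes was 0.21 on the log2 scale. Dcpp3, one of the demilune cell and parotid proteins, had a lowest level of 8.46, a median of 12.62 and a highest level of 14.19 with Bpifa2 above 12, against 5.94, 6.19 and 6.69 with Bpifa2 under 5. Wfdc12, a secreted protein with the whey acidic protein domain, had 8.03, 11.73 and 14.41 with Bpifa2 above 12, against 5.26, 5.69 and 5.99 with Bpifa2 under 5. Dcpp1, a further demilune protein, had 4.44, 6.71 and 8.71 with Bpifa2 above 12, against 3.35, 3.66 and 3.87 with Bpifa2 under 5. None of these 3 genes overlapped between the sides. Prol1, a proline-rich protein of tears and saliva, and Wfdc18 differed by 2.69 and 2.20, and both overlapped. Spdef, a transcription factor of mucous cells, averaged 5.20 with Bpifa2 above 12 and 4.34 with Bpifa2 under 5, and its highest values were 6.70 in tumour 7 and 6.67 in tumour 3. The other 10 mucous genes were not called. They include Agr2, Tff2, Fcgbp and Galnt12, which differed by 0.23, 0.15, 0.14 and -0.07. Smgc, a mucin-like product of the neonatal submandibular gland, differed by 0.19 on the probe set used and by 2.20 on its other probe set. Muc19, the main mucin of sublingual cells, was not analysed here.

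Of 11 genes of the granular ducts of the submandibular gland, 2 were called higher, Crisp3 and Klk1b16, beside 0.682% of all genes tested. Crisp3, a cysteine-rich secretory protein, had a lowest level of 2.74, a median of 4.86 and a highest level of 7.25 with Bpifa2 above 12, against 2.28, 2.42 and 7.00 with Bpifa2 under 5. The high value on the low side belonged to tumour 27, which passed the other tumours of its side by more than 1 for no other of the 32 gland genes called. Klk1b16 differed by 0.37 and reached at most 3.76 with Bpifa2 above 12 and 3.81 with Bpifa2 under 5. Egf, the growth factor made in granular ducts, averaged 6.36 with Bpifa2 above 12 and 5.77 with Bpifa2 under 5 and was not called. Klk1b1, Klk1b5, Klk1b8, Klk1b11, Klk1b21, Klk1b24 and Klk1b27, kallikreins of the same family, differed by -0.20 to 0.36 and were not called. Klk1b27 reached 8.36 with Bpifa2 under 5, where its median was 3.82, and at most 4.29 with Bpifa2 above 12. These family members are near-identical and their probe sets may not tell them apart.

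Of 9 lacrimal and secretoglobin genes, 3 were called higher, beside 0.682% of all genes tested. Scgb2b27 and Scgb1b27 are secretoglobins of the androgen-binding protein family, which is found in mouse saliva and tears. Scgb2b27 had a lowest level of 6.28, a median of 9.32 and a highest level of 12.67 with Bpifa2 above 12, against 2.68, 2.93 and 5.71 with Bpifa2 under 5. Scgb1b27 had 6.21, 9.13 and 13.41 with Bpifa2 above 12, against 5.49, 5.67 and 7.97 with Bpifa2 under 5. Mup5, a lipocalin of the major urinary protein family, had 5.41, 7.48 and 12.12 with Bpifa2 above 12, against 3.76, 4.13 and 4.51 with Bpifa2 under 5. The sides overlapped for Scgb1b27 and not for Scgb2b27 and Mup5. The lipocalins Lcn3, Lcn4, Lcn11 and Obp1a, which serve tears and nasal secretions, differed by 0.02 to 0.16 and were not called.

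Of 28 genes of gland and duct epithelium, 11 were called higher and 0 lower, beside 0.682% and 0.011% of all genes tested. The median difference of the 28 genes was 0.76 on the log2 scale. Pigr, the receptor that carries polymeric immunoglobulin through epithelium, had a lowest level of 4.57, a median of 6.49 and a highest level of 8.47 with Bpifa2 above 12, against 3.76, 4.44 and 6.83 with Bpifa2 under 5. The others, by the size of the difference, were Elf5, a transcription factor of secretory epithelium (1.74), Tfcp2l1, a transcription factor of ducts (1.67), Prom1 (1.50), the chloride channel Ano1 (0.99), the protease Tmprss2 (0.80), the tight junction proteins Cldn8 (0.77) and Cldn3 (0.74), and the transcription factors Sox10 (0.64), Sox9 (0.55) and Elf3 (0.34). For the keratins and Epcam, which mark most epithelia, the sides overlapped widely. Krt18 averaged 8.39 with Bpifa2 above 12 and 6.38 with Bpifa2 under 5, Krt8 averaged 6.63 and 5.35 in the same order, and Epcam averaged 7.24 and 5.97, with highest levels under 5 of 10.39, 8.61 and 9.28. None of these 3 was called, nor was Ehf, whose difference was 1.86. Among the 32 called gland genes, 10 have several probe sets, and most of the others gave smaller differences than the one used. The one used has the highest mean over all tumours, so levels with Bpifa2 above 12 could decide that choice. For Elf5 and Ano1 the other probe set was the higher one with Bpifa2 under 5 (3.68 against 3.59, and 6.06 against 6.00). The other probe sets differed by 1.40 for Pip, 0.74 for Prol1, 0.23 for Elf5, 0.21 and 0.12 for Tfcp2l1, 0.44 for Ano1, 0.21 and 0.07 for Sox10, and 0.51 and 0.16 for Sox9. They differed by 1.08, 0.41 and 0.06 for Tmprss2, by 0.93, 0.89 and 0.63 for Cldn3 and by 3.04 for Pigr. Of 12 myoepithelial and basal genes 0 were called in either direction by limma, 2 had an unadjusted p under 0.05, and their median difference was 0.05.

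**Figure D2:**
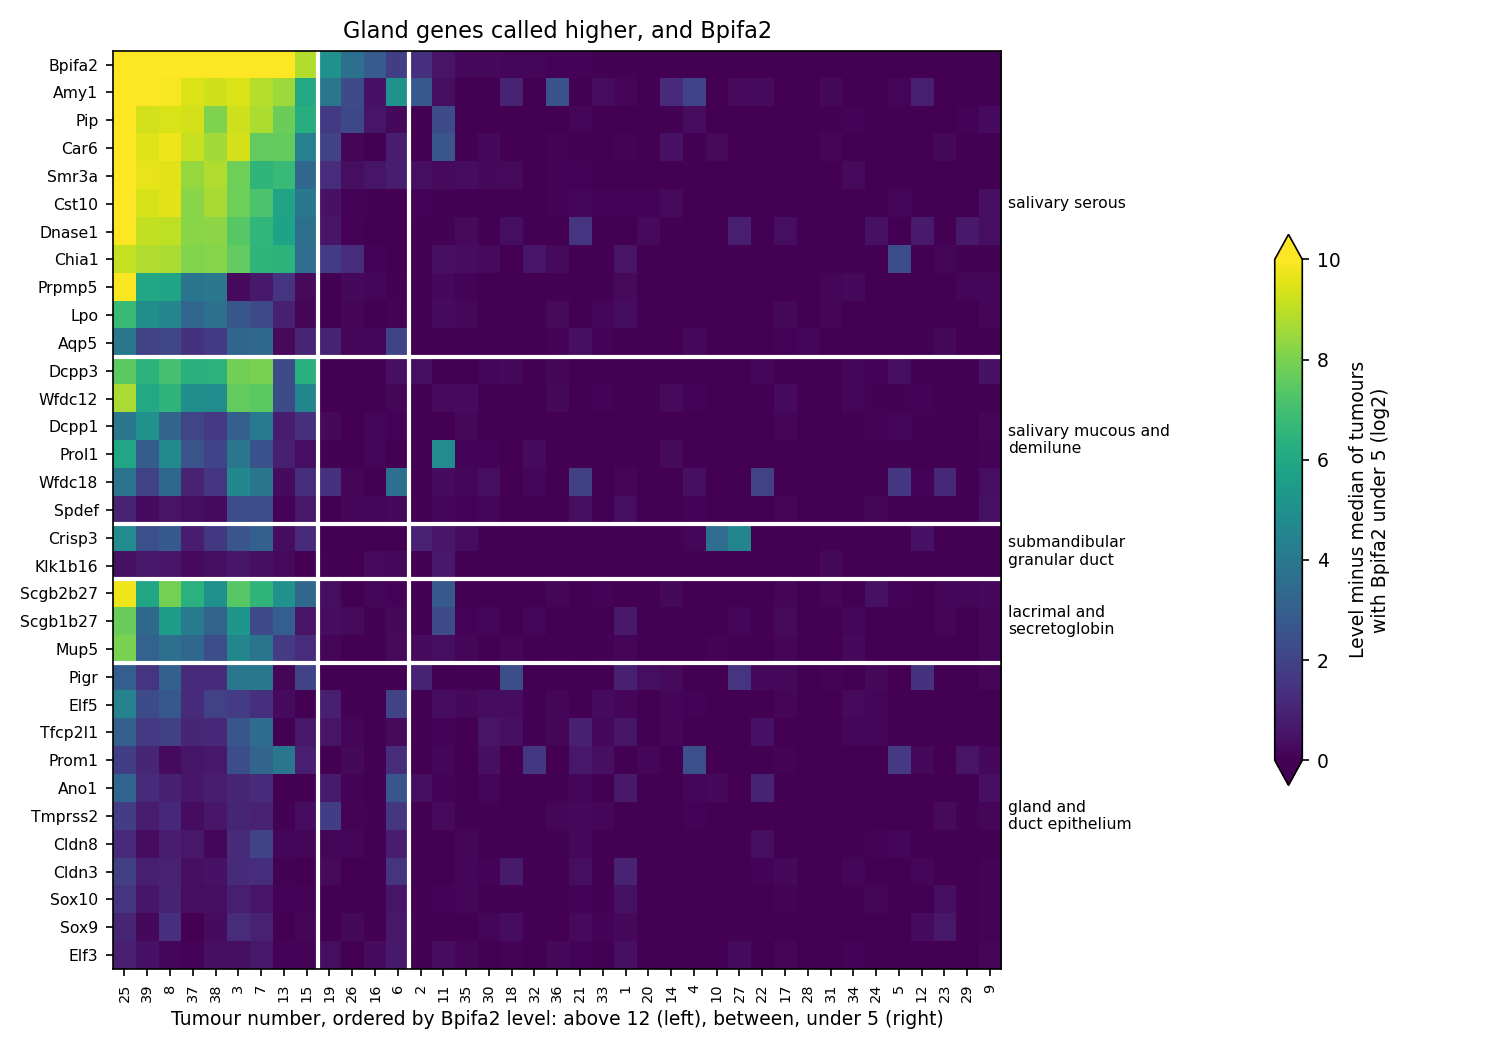
Level of Bpifa2 and of the 32 gland genes called higher in each tumour, as the difference from the gene's median in the tumours with Bpifa2 under 5 (log2, colour, with values above 10 and below 0 drawn in the end colours). Columns are tumours ordered by Bpifa2 and rows are grouped by list, and Amy1, Pip, Car6, Smr3a, Cst10, Dnase1 and Chia1 are bright in all 9 tumours on the left while the other genes vary among them.

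Outside the gland lists, the called gene with the largest difference was A2ml1, at 3.84, whose levels are given below by tumour. Further genes called there follow, and their adjusted p-values are from limma with Benjamini-Hochberg adjustment over all genes. Genes outside the lists were not shown to come from cells other than gland cells. Their p-values are therefore no independent support for the split. Fxyd3, a regulator of the sodium pump, had a lowest level of 5.86, a median of 8.70 and a highest level of 9.84 with Bpifa2 above 12, against 4.62, 5.22 and 7.05 with Bpifa2 under 5. It was higher by 3.02 ± 0.31 (SE, adjusted p = 1.27e-08). Lrrc26, an accessory subunit of the large potassium channel, had 4.50, 5.48 and 8.28 with Bpifa2 above 12, against 3.56, 4.18 and 4.34 with Bpifa2 under 5. It was higher by 1.81 ± 0.24 (SE, adjusted p = 4.3e-06), and its sides did not overlap. Fads2b, a fatty acid desaturase, was higher by 1.81 ± 0.26 (adjusted p = 3.58e-05), Fxyd2, a subunit of the sodium pump, by 1.66 ± 0.22 (adjusted p = 7.02e-06), and Elapor1 by 1.34 ± 0.20 (adjusted p = 6.35e-05). Cyp2f2, a cytochrome P450, had 4.31, 5.91 and 8.43 with Bpifa2 above 12, against 2.90, 3.53 and 6.12 with Bpifa2 under 5, and was higher by 2.46 ± 0.40 (adjusted p = 0.000208). In tumour 6, between the sides, Cyp2f2 was 7.44.

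Further called genes outside the gland lists had wider spread. Ggh, gamma-glutamyl hydrolase, was higher by 2.05 ± 0.44 (adjusted p = 0.0098), with a highest level of 10.03 among the tumours with Bpifa2 under 5, in tumour 2. Odam, a secreted protein first known from the enamel organ, was higher by 1.90 ± 0.40 (adjusted p = 0.0095). Platr10, a non-coding transcript, was higher by 1.81 ± 0.42 (adjusted p = 0.0238), Mfsd4a, a transporter, by 1.64 ± 0.41 (adjusted p = 0.0426), and Tmem30b, a flippase subunit, by 1.58 ± 0.28 (adjusted p = 0.000936). Rnase1, a secreted ribonuclease, was higher by 1.43 ± 0.34 (adjusted p = 0.0268), Rab4a, a GTPase of recycling endosomes, by 1.37 ± 0.34 (adjusted p = 0.0426) and Kif21a, a kinesin, by 1.28 ± 0.27 (adjusted p = 0.00724). Fxyd2, Mfsd4a and Kif21a have several probe sets, whose lowest correlations with the one used were 0.30, 0.34 and 0.23. Platr10 and Kif21a were highest in tumour 13, at 9.50 and 8.68. That tumour was the lowest of the 9 for 14 of the 32 called gland genes, and tumour 15 for 17.

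Over all genes tested, 0.682% were called higher, which is the background for the lists of this paragraph. Of 32 genes of protein secretion through the endoplasmic reticulum, 1 was called higher. This was Creb3l1, a transcription factor of the endoplasmic reticulum membrane, which averaged 6.07 ± 0.76 with Bpifa2 above 12 and 5.09 ± 0.22 with Bpifa2 under 5 (SD, n = 9 and 26) and was higher by 0.98 ± 0.16 (SE, limma adjusted p = 0.000208). The median difference of the 32 genes was 0.00. Among 57 genes of other epithelia and glands 2 were called higher, Slc5a5 in the thyroid list, the iodide transporter that salivary glands also carry, and Calml3 in the skin list. Slc5a5 was higher by 0.30 ± 0.07 and Calml3 by 0.51 ± 0.11, and their highest levels in the 9 tumours were 5.42 and 5.04. Of other glands, the 15 genes of the exocrine pancreas and the 8 of the mammary gland had 0 calls by limma in either direction, with 1 and 2 genes at an unadjusted p under 0.05. Single tumours stood out all the same: in tumour 37 the pancreatic enzymes Cela2a, Cpa1, Cpb1 and Prss2 reached 8.71, 7.44, 8.29 and 8.99, against medians of 3.40, 3.92, 3.21 and 5.87 over the 9 tumours. On the side with Bpifa2 under 5, tumour 31 was the highest for these enzymes, at 9.49, 8.03, 8.57 and 8.81.

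The lymphoid, stromal, myeloid, proliferation and programme lists hold 379 genes, and limma called 0 of them higher and 0 lower, at a background of 0.682% and 0.011%. Over all 18192 genes tested, 1420 higher and 282 lower genes had an unadjusted limma p under 0.05. Of the 379 genes 35 did, a similar share. Their lowest adjusted p was 0.0874, and their median difference was -0.04 on the log2 scale. The 95% confidence interval of the difference reached, at the median gene, 0.59 to either side of the difference, and it lay within 1 of zero on both sides for 225 of the 379 genes. For the others a difference of 1 lay inside the interval, which the number of arrays limits. A few genes stand in lists of several kinds. For the 102 lymphoid genes the median difference was -0.19, for the 73 stromal genes 0.08, for the 60 proliferation genes -0.05, for the 53 myeloid and erythroid genes 0.02 and for the 94 programme genes -0.02.

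B cell genes overlapped between the sides. The mean of 14 pan B cell genes ranged between 8.14 and 10.76 with Bpifa2 above 12 (median 10.43), against 7.71 to 10.88 with Bpifa2 under 5 (median 10.64), with 0 of 14 called by limma and 0 at an unadjusted p under 0.05. Pou2af1, the coactivator by which the B cell tumours were chosen below, had a lowest level of 3.41, a median of 12.73 and a highest level of 12.98 with Bpifa2 above 12, against 4.46, 12.73 and 12.96 with Bpifa2 under 5. Ighm, the heavy chain of IgM, averaged 13.68 ± 0.59 with Bpifa2 above 12 and 13.49 ± 1.23 with Bpifa2 under 5, and Igha, the heavy chain of the IgA that glands export, averaged 10.92 ± 1.26 and 10.25 ± 2.19 in the same order (SD, n = 9 and 26). Neither was called, and the 95% interval for Igha reached from -0.85 to 2.18. All 9 genes of MHC class II had lower means with Bpifa2 above 12, with a median difference of -0.70, and limma called 0 of them, 2 having an unadjusted p under 0.05. H2-Oa, a modulator of peptide loading, differed by -1.28 (95% interval -2.17 to -0.38, limma adjusted p = 0.269). Rag1, which rearranges antigen receptor genes in precursor cells, averaged 4.68 ± 1.28 with Bpifa2 above 12 and 6.20 ± 2.77 with Bpifa2 under 5 (limma adjusted p = 0.654).

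Among the other cells of the tissue, the largest list difference was that of 13 neutrophil genes. All 13 had higher means with Bpifa2 above 12, by a median of 1.60, 10 had an unadjusted p under 0.05, and limma called 0. S100a8, a calcium-binding protein of neutrophils, had a lowest level of 3.61, a median of 11.43 and a highest level of 13.18 with Bpifa2 above 12, against 4.88, 8.53 and 12.91 with Bpifa2 under 5. Its difference was 2.20 (95% interval 0.38 to 4.03, limma adjusted p = 0.387). Camp, the neutrophil cathelicidin, differed by 1.88 (95% interval 0.76 to 2.99, limma adjusted p = 0.138). The part of neutrophils in the gland gene differences was not tested. T cell, macrophage, fibroblast and endothelial lists had median differences of -0.07, -0.31, -0.10 and -0.07, with 0 genes called by limma and 0, 1, 0 and 1 genes at an unadjusted p under 0.05. Single genes with larger differences were Glycam1, the ligand for L-selectin on vessels of lymph nodes (1.58, limma adjusted p = 0.481) and Perp, a p53 target also present in epithelia (1.75, limma adjusted p = 0.0874).

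Of proliferation genes, the 19 of G2/M had a median difference of -0.05, the 19 of S phase and E2F targets -0.09 and the 22 Myc target and ribosome biogenesis genes 0.01. In the S phase list 2 genes had an unadjusted p under 0.05, both enzymes of thymidine nucleotide supply. Tyms, thymidylate synthase, differed by -0.90 (95% interval -1.50 to -0.29, limma adjusted p = 0.23) and Tk1, thymidine kinase, by -0.58 (95% interval -1.08 to -0.09, limma adjusted p = 0.4). Mki67, a protein of cycling cells, averaged 12.55 ± 0.64 with Bpifa2 above 12 and 12.69 ± 0.54 with Bpifa2 under 5, and Myc averaged 11.96 ± 0.58 and 11.67 ± 0.86 in the same order (SD, n = 9 and 26). The 95% interval of the difference was -0.57 to 0.29 for Mki67 and -0.32 to 0.89 for Myc. Among 22 Myc network and lesion genes 0 were called and 2 had an unadjusted p under 0.05, and the largest differences were those of the D cyclin Ccnd1 (-0.62) and of Mtap, the neighbour of Cdkn2a and Cdkn2b (-0.55).

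**Figure D3:**
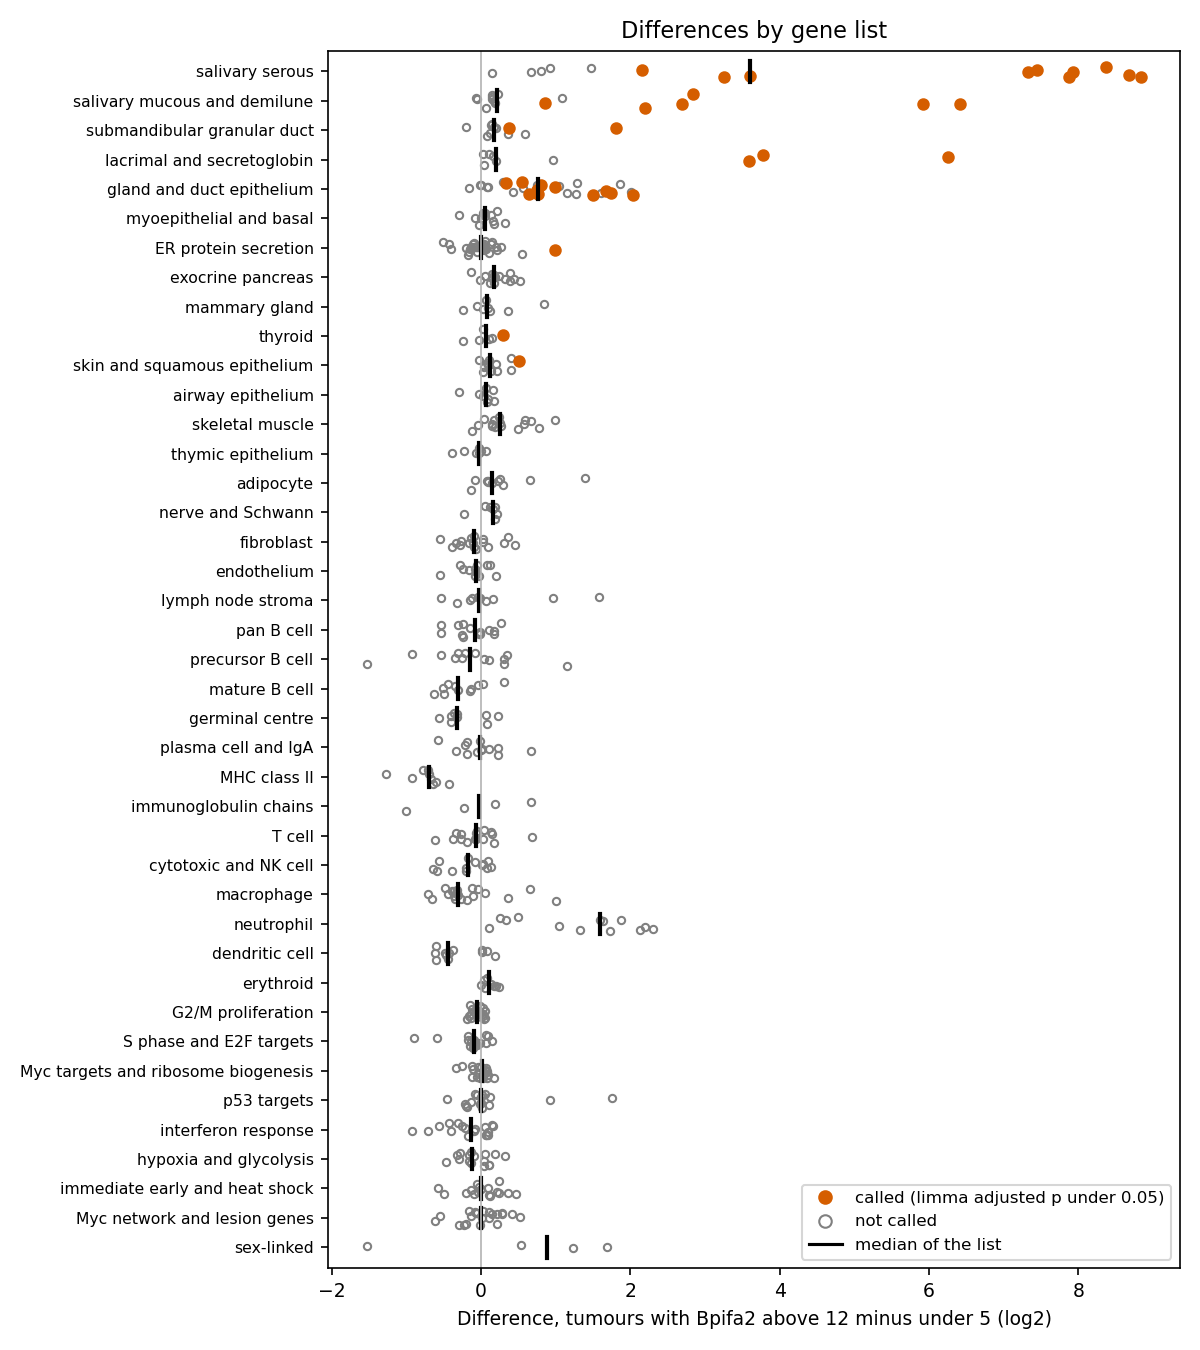
Difference in mean level between tumours with Bpifa2 above 12 and tumours with Bpifa2 under 5 (log2, horizontal axis) for each tested gene of 41 lists (down the page), with filled points for genes called by limma and a bar at the list's median. Called genes stand in the 5 upper gland lists, with 1 each in the endoplasmic reticulum, thyroid and skin lists, and the neutrophil list is shifted to the right without a called gene.

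**Figure D4:**
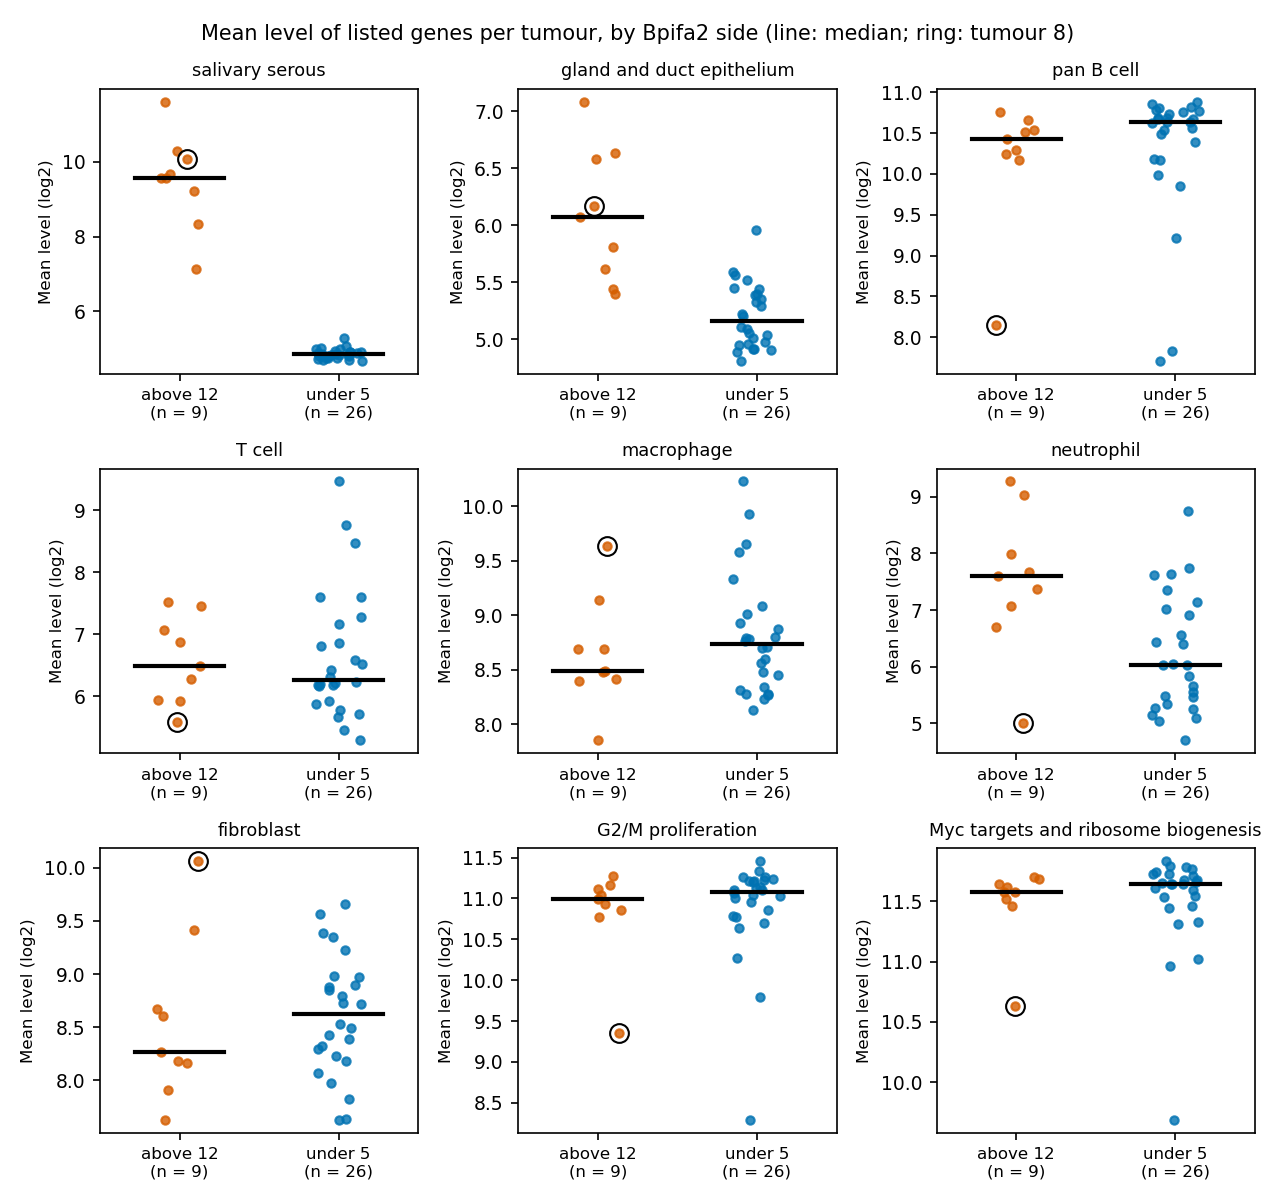
Mean level (log2, vertical axis) of the genes of 9 lists in each tumour with Bpifa2 above 12 (left, n = 9) and with Bpifa2 under 5 (right, n = 26), with a line at the median and a ring around tumour 8. The sides are apart for serous genes (7.15 to 11.60 against 4.68 to 5.28) and overlap for the other 8 lists. The ringed tumour is the lowest of the 9 for pan B cell, T cell, neutrophil, G2/M and Myc target genes. It is the highest of the 9 for macrophage (9.64) and fibroblast genes (10.06).

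The 2 genes called lower were Vti1a and Eif3a, both on chromosome 19. Vti1a, a SNARE protein of the Golgi, averaged 7.48 ± 0.51 with Bpifa2 above 12 and 8.01 ± 0.23 with Bpifa2 under 5, a difference of -0.54 ± 0.13 (SE, limma adjusted p = 0.0268). Eif3a, a translation initiation factor, differed by -0.27 ± 0.07 (limma adjusted p = 0.0405). Both genes have several probe sets, and those of Vti1a disagreed, with a lowest correlation of -0.36 with the one used. Neither was called when the comparison was repeated among B cell tumours.

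The comparison was repeated with tumours in which Pou2af1 was 8 or more, which left 8 tumours with Bpifa2 above 12 and 24 with Bpifa2 under 5. Tumour 8, with Pou2af1 at 3.41, and tumours 5 and 23 on the low side were left out. Limma then called 100 genes higher (0.55% of those tested) and 2 lower (0.011%), of which 92 and 0 were also called in the whole comparison. Of the 100 genes, 29 belong to the gland lists. Serous genes counted 10, mucous 6, granular duct 1, secretoglobin 3 and duct epithelium 9, and the 3 listed genes no longer called were Crisp3, Elf3 and Sox9, with differences of 1.69, 0.35 and 0.47. For the markers the difference was 8.72 for Amy1, 8.59 for Pip and 8.20 for Car6, against 8.84, 8.68 and 8.37 with all tumours. Outside the gland lists A2ml1 was higher by 4.31, Fxyd3 by 2.97, Cyp2f2 by 2.28, Lrrc26 by 1.74 and Creb3l1 by 1.03, with limma adjusted p-values of 0.00889, 4.45e-07, 0.00276, 7.55e-05 and 0.000688. Odam, Rnase1 and Slc5a5 were not called in the repeat, at adjusted p-values of 0.0596, 0.125 and 0.0711. Genes called lower were Tspan17, a tetraspanin (-0.63, limma adjusted p = 0.0456), and Casp9, a caspase (-0.45, limma adjusted p = 0.043).

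In the repeat, 1170 higher and 445 lower genes of 18192 tested had an unadjusted limma p under 0.05. Of the 379 lymphoid, stromal, myeloid, proliferation and programme genes, limma called 0 in either direction. An unadjusted p under 0.05 was seen for 45 of the 379, and their lowest adjusted p was 0.0547, that of Camp. The 95% interval reached 0.56 to either side of the difference at the median gene, and 230 of the 379 intervals lay within 1 of zero. The median difference of the neutrophil genes was 1.84 and that of the MHC class II genes -0.55. For the 20 macrophage genes it was -0.46, with 6 at an unadjusted limma p under 0.05 and 0 called, and 5 of the 20 had higher means with Bpifa2 above 12. Without tumour 8 the neutrophil mean of the remaining 8 tumours ranged between 6.71 and 9.27, against 4.70 to 8.74 over the 26 tumours with Bpifa2 under 5. The counts of 0 did not hold under every alternative. In the whole comparison Camp passed the threshold without tumour 8 and without tumours 2, 6 and 8, Perp without tumour 13, and Perp and the globin Hba-a1 without tumour 15. With T cell, macrophage and fibroblast scores as covariates, 4 of the 379 genes were called, Cdh5, H2-Oa, Tyms and Perp. Genes of the T cell, macrophage and fibroblast lists, Timd4 among them, were adjusted for a score that includes them. In the repeat Camp passed with the mean of all probe sets, with a slope on Bpifa2, with arrays centred, without tumour 15 and, together with the neutrophil collagenase Mmp8, without tumour 3, while the cell scores gave 2 calls, Timd4 and Perp. Other neutrophil genes with wide differences in the repeat were S100a8 (2.82, limma adjusted p = 0.0978), S100a9 (2.79, limma adjusted p = 0.0918) and Ngp (2.51, limma adjusted p = 0.0835).

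The 9 tumours differed in how much gland transcript they held and in which. Tumour 25 was the highest of the 9 for 76 of the 124 called genes and for 22 of the 32 gland genes among them. Tumours 15 and 13 were the lowest for 17 and 14 of the 32 gland genes. Dnase1 was 14.24, 13.31, 13.28, 12.45, 12.51, 11.65, 10.83, 10.06 and 7.92 in tumours 25, 39, 8, 37, 38, 3, 7, 13 and 15, highest in tumour 25 and lowest in tumour 15. Dcpp3 was highest in tumours 7 and 3, at 14.19 and 14.05, was 12.54 in tumour 15, and was lowest in tumour 13, at 8.46.

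Some genes were high in only a few of the 9 tumours, and these genes were picked out after their values were seen. Prpmp5, a proline-rich protein of saliva, was 12.77 in tumour 25, 8.80 in tumour 39, 8.68 in tumour 8, 6.83 in tumour 38, 6.74 in tumour 37 and 4.35 in tumour 13. It was 3.53, 3.12 and 3.10 in tumours 7, 3 and 15. In those last 3 tumours it was close to the tumours with Bpifa2 under 5, whose highest level was 3.11. Prp2, a further proline-rich protein, was 11.06 in tumour 25 and at most 4.54 in the other 8 tumours with Bpifa2 above 12, against at most 4.66 with Bpifa2 under 5. Sval2, a seminal-vesicle-antigen-like protein, was 8.49 in tumour 25 and at most 3.79 in the other 8. Odam was 9.56 in tumour 25 and 6.46 in tumour 8, and 2.82 to 3.30 in tumours 3, 7, 13 and 15.

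A2ml1, a protease inhibitor of the alpha-2-macroglobulin family, had the opposite distribution. It was 14.21 in tumour 7, 13.77 in tumour 3, 11.97 in tumour 15 and 9.73 in tumour 37, between 3.86 and 4.29 in the other 5 tumours with Bpifa2 above 12, and between 3.51 and 4.51 with Bpifa2 under 5. It was called higher by 3.84 ± 0.85 (SE, limma adjusted p = 0.0144), a mean over tumours that were either high or at the level of the low side. Lman1l, a relative of a cargo receptor of the secretory pathway, was 9.12, 8.51 and 5.92 in tumours 7, 3 and 15, against 3.59 to 4.42 in the other 6. Xist, the transcript of the inactive X chromosome, was 13.34, 13.19 and 13.15 in tumours 7, 3 and 15 and 5.42 to 5.76 in the other 6. Among the 26 tumours with Bpifa2 under 5, Xist was above 10 in 14. The relation of A2ml1 and Lman1l to Xist was seen in 9 tumours and was not tested.

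**Figure D5:**
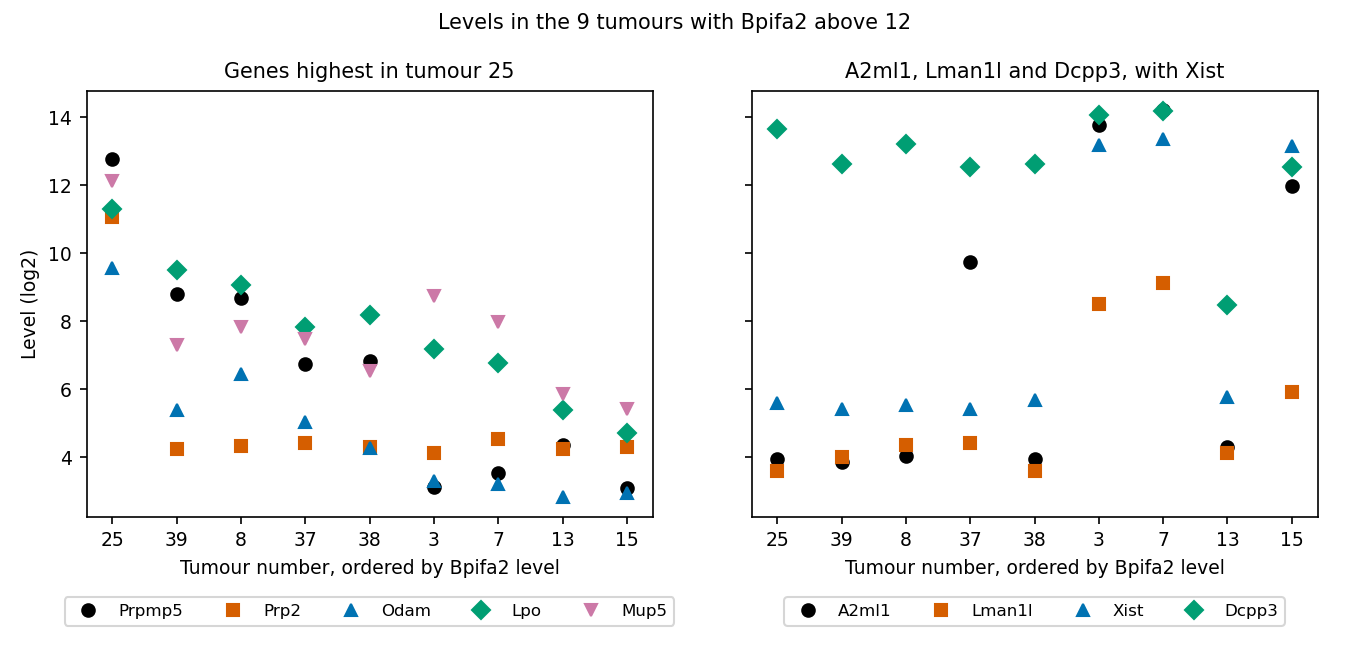
Levels (log2, vertical axis) in the 9 tumours with Bpifa2 above 12, ordered along the horizontal axis by Bpifa2, for genes highest in tumour 25 (left panel) and for A2ml1, Lman1l, Dcpp3 and Xist (right panel). Prp2 stands at 11.06 in tumour 25 alone, while A2ml1 (hidden behind Dcpp3 in tumour 7) and Xist are both at 11.97 or more in tumours 3, 7 and 15, and A2ml1 is also 9.73 in tumour 37.

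Foxi1, a transcription factor of ion-transporting duct cells, was 10.12 in tumour 13, at most 5.17 in the other 8 tumours with Bpifa2 above 12, and at most 4.92 with Bpifa2 under 5. In the tumours between the sides it was 8.77 in tumour 19 and 9.13 in tumour 26. Dmbt1, the salivary agglutinin, was also highest in tumour 13, at 8.90, and reached 7.09 with Bpifa2 under 5. Skeletal muscle transcripts were highest in tumour 25, with Myh4 at 8.74 and Acta1 at 10.04, against medians of 3.41 and 6.64 over the 9 tumours, and limma called 0 of the 16 muscle genes, 6 having an unadjusted p under 0.05. Tumour 6, between the sides, had Myh4 at 10.42, Acta1 at 11.64 and Ucp1, the uncoupling protein of brown fat, at 9.53. Tumour 8, the tumour with low B cell genes, had Ucp1 at 10.81, against a median of 3.98.

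Gland transcripts were also seen outside the 9 tumours. In tumour 11, with Bpifa2 at 4.17, Prol1 was 7.52, Car6 was 6.79, Pip was 6.29, Scgb2b27 was 5.71 and Scgb1b27 was 7.97. The next highest tumours with Bpifa2 under 5 had 3.00, 4.66, 4.29, 3.36 and 6.36 for these genes, while Amy1, Cst10 and Smr3a were 4.02, 3.29 and 3.52 in tumour 11. In total, tumour 11 was above the other tumours with Bpifa2 under 5 for 8 of the 32 gland genes, 5 of them by more than 1. Mucl2, a mucin-like protein chosen after its values were seen, was 8.60 in tumour 11, 11.51 in tumour 25 and 8.74 in tumour 8. Tumour 6, between the sides, was above all tumours with Bpifa2 under 5 for 12 of the 32 genes. It passed them by more than 1 for Amy1, Elf5, Ano1, Wfdc18, Aqp5 and Tmprss2, at 8.79, 5.59, 8.62, 9.38, 7.27 and 6.44. Pip and Car6 were 4.19 and 4.92 in tumour 6. Tumour 19 was above them for 6 of the 32 genes, with Amy1 at 7.58 and Tmprss2 at 6.68.

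Array quality was compared beside these results. The mean level of the poly-A control probe sets was 8.87 ± 0.83 with Bpifa2 above 12 and 9.25 ± 0.20 with Bpifa2 under 5 (SD, n = 9 and 26, exact permutation p = 0.0215, adjusted over 3 measures 0.0579). Tumour 39 alone was at 6.70 and the other 8 lay between 8.93 and 9.53, and without it the difference was -0.117 in place of -0.387 (exact permutation p = 0.166, adjusted 0.249). The 3 prime minus 5 prime difference was 0.154 ± 0.103 with Bpifa2 above 12 and 0.0878 ± 0.0731 with Bpifa2 under 5 (exact permutation p = 0.0386, adjusted 0.0579). Tumour 3 was at 0.395 and the other 8 at 0.194 or less, and without it the difference was 0.036 in place of 0.0662 (exact permutation p = 0.207, adjusted 0.311). The hybridisation controls averaged 10.78 ± 0.19 and 10.79 ± 0.15 in the same order (exact permutation p = 0.887, adjusted 0.887). With the poly-A mean and the 3 prime minus 5 prime difference as covariates, limma called 75 genes higher in the whole comparison and 33 in the repeat. With tumour 39 also left out the counts were 71 and 27, and with tumour 3 left out in its place 66 and 30. The medians of the 39 arrays lay between 5.61 and 5.78.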

How the data were processed

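Levels are the log2 values that the authors deposited for 39 tumours on Affymetrix mouse genome arrays. Per the submitters' processing notes, RMA from the package affy made them. RMA makes all arrays share 1 distribution, so a change in total RNA cannot be seen. Of 45101 probe sets, 64 controls were left out, 34945 named 1 gene, 932 several and 9160 none. The probe set with the highest mean over all tumours stood for each of 18193 genes, 9010 of which had several. Bpifa2 was left out of the fits.

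Sides were compared with limma 3.58.1 (lmFit, eBayes with trend) in R 4.3.3 with Benjamini-Hochberg adjustment over all 18192 genes and a threshold of 0.05, after checks on simulated data. Control probe sets were compared with a two-sided exact permutation test. Levels were tabulated in Python 3.11.15 with pandas 2.3.3 and numpy 2.4.6, and drawn with matplotlib 3.10.9. The number of arrays limits the precision, and 0 columns were left unused. All samples were used, in 1 labelled group.

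The sides, members and 41 gene lists (638 genes, 560 measured, the rest not analysed here) were chosen with earlier results of these data known. Named genes are the 15 with the largest positive differences among those called, the 15 in no gland list, the 15 largest negative ones, every gland, immunoglobulin, sex-linked and Myc network gene, and the 4 largest differences of each other list, in both comparisons. Riken clones, Gm genes and unnamed transcripts were passed over. Other choices of probe set, filter, scaling, threshold, covariates and tumours were tried.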

Additional observations from a re-analysis of the deposited data

Results flagged for a closer look

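Within the 9 tumours with Bpifa2 above 12, 114 genes (those of the gland and pan B cell lists and a few picked after their values were seen) were checked for a single tumour far from the other 8 by Dixon's criterion, and 24 genes had one. For 9 independent normal values the criterion sets apart about 1 in 20 groups. The genes checked vary together and some were picked after their values were seen, so the 24 cannot be weighed against that rate. Tumour 15 was apart at the low end for Amy1 (9.71, next 12.21), Car6 (8.51, next 11.75), Chia1 (8.02, next 10.90) and Klk1b16 (2.94, next 3.36). Tumour 13 was apart at the low end for Dcpp3 (8.46, next 12.52) and Slc12a2 (8.37, next 9.72), and at the high end for Foxi1 (10.12, next 5.17) and Dmbt1 (8.90, next 5.59).

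Tumour 25 was apart at the high end for Prp2 (11.06, next 4.54), Sval2 (8.49, next 3.79), Mup5 (12.12, next 8.73), Ano1 (9.26, next 7.20) and Krt5 (6.41, next 6.12), and at the low end for Cd79b (11.81, next 12.34) and Lcn11 (4.19, next 4.39). Tumour 8 was apart at the low end for the B cell genes Pou2af1 (3.41, next 12.68), Cd79a (4.05, next 8.76), Fcrla (4.56, next 10.26) and Cd22 (6.25, next 9.83). It was apart at the high end for Obp1a (4.45, next 2.87), Scgb1b2 (4.35, next 3.80) and Klk1b5 (3.58, next 3.06), and tumour 7 for Agr2 (3.715, next 3.26) and Klk1b21 (6.40, next 6.19).

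In tumours that neither side holds, Bpifa2 was 8.71 in tumour 19, 7.34 in tumour 26, 6.51 in tumour 16 and 5.495 in tumour 6, above the highest tumour with Bpifa2 under 5, at 4.998. Amy1 was 7.58 in tumour 19 and 8.79 in tumour 6, above the highest tumour with Bpifa2 under 5, at 6.42. These differences were not tested.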

How the results depend on the processing

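Among the named genes called by limma, 35 of 54 in the whole comparison and 20 of 48 in the repeat stayed called under every alternative that could be run, and 0 changed direction. Counts of genes called higher in the whole comparison (124) and in the repeat (100) moved by over 1.5 times in these cases: with genes of a mean level of at least 6 there were 17 and 15 (fewer genes tested), and with the poly-A and 3 prime minus 5 prime measures as covariates 75 and 33 (with tumour 39 left out too 71 and 27, and with tumour 3 left out 66 and 30, both chosen after seeing the data). With tumour 39 left out so, 1 gene was lower in the repeat. The filter at a mean level of 6 used all 39 tumours, so a gene could pass it through its level in the 9 tumours. Its counts are therefore no independent check of the calls. Leaving out each tumour with Bpifa2 above 12 in turn gave 94 to 176 and 72 to 144. The 2 genes called lower in each comparison were unstable. In the whole comparison there were 4 with the mean of all probe sets, 0 with the filter at 6, 1 without trend, 0 with Bpifa2 above 10 against under 6, 0 with a slope on Bpifa2, 7 without tumours 2, 6 and 8, 1 with Xist and Y-linked levels as covariates, 20 with T cell, macrophage and fibroblast scores and 0 with arrays centred. In the repeat the same settings gave 6 with the mean of probe sets, 0 with the filter, 4 with the slope, 6 without tumours 2, 6 and 8, 5 with Xist and Y-linked levels, 6 with the scores and 1 with centring. Leaving out 1 tumour with Bpifa2 above 12 gave 0 (without tumour 3 or 25) to 5 (without tumour 15) in the whole comparison. In the repeat it gave 0 (without tumour 7 or 25) to 3. Leaving out tumour 2, chosen after seeing the data, gave 5 and 6 lower genes, and leaving out tumour 11, also chosen then, gave 1 in the repeat. The causes were not tested. The poly-A control difference taken as medians was -0.216 (permutation adjusted p = 0.0452). Leaving out each of the 9 tumours in turn, chosen after seeing the data, gave -0.470 (without tumour 8) to -0.117 (without tumour 39) for poly-A and 0.036 (without tumour 3) to 0.0805 (without tumour 8) for the 3 prime minus 5 prime difference. The adjusted exact permutation p for poly-A was under 0.05 without tumour 8, 37 or 38, and that for the 3 prime minus 5 prime difference without tumour 8 or 38. No paired analysis was possible because the labels give 1 group, in which numbers only name tumours. The hydrophobic starts of proteins were not run. Most genes called higher had a median under 6 in the tumours with Bpifa2 under 5, where arrays give little above background.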
